A study of Mus musculus with 30 samples.

Results

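The mucosa of the jejunum was profiled on 10 arrays from mice that received PBS alone, out of 30 arrays in the study, and these 10 were taken by their labels (agent PBS, tissue jejunum). Of them, 3 came from mice killed 1 h after the injection, 4 from mice killed after 5 h and 3 from mice killed after 20 h. All were C57BL/6 males of 11 to 12 weeks, kept on a standard diet under 12 h of light and 12 h of dark, not fasted, and given a single dose. The other 20 arrays came from mice that received Ex-4 (exendin-4, an agonist of the GLP-1 receptor) at 10 nmol/kg or KGF (labelled Fgf7, keratinocyte growth factor) at 1 mg/kg, killed at the same 3 times, again in groups of 3, 4 and 3. RNA came from scrapings of the mucosa of a 2 cm piece of jejunum and was read on Illumina beadchips, which give a fluorescence signal per probe, here on a log2 scale. The labels give neither the hour of day at which mice were injected or killed nor the order in which arrays were run, so hours since the injection, time of day and any array batch that follows time cannot be told apart.

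The jejunal lining is a single layer of epithelial cells over connective tissue. Absorptive enterocytes on the villi digest sugars and peptides at their brush border and repackage fat into chylomicrons. Goblet cells secrete mucus, Paneth cells at the crypt base secrete antimicrobial peptides, and enteroendocrine and tuft cells sense the lumen. Stem cells in the crypts renew this layer continuously, and lymphocytes sit between its cells. Many intestinal genes also follow the circadian clock and the feeding cycle, which in mice is mainly nocturnal.

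A probe was called above the dim level when its signal was over 7.18, set from the spread of signals below the most common signal of 7.02. Of 19057 genes on the array, 8930 were above this level in all 10 PBS arrays and 5365 in none of them. The array medians were all 7.14 and between 45.3% and 45.4% of probes were above the dim level in each PBS array. Because probes bind with different strength, signals of different genes are given as levels of those probes and are not ranked as amounts of RNA. Mucosal scrapings mix cell types, and for every marker below, fewer cells of a type and less RNA per cell cannot be told apart.

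The 20 brightest probes of PBS mucosa had mean signals between 14.81 and 15.05, close to the top of the scale. Lipid and vitamin carriers were Apoc3 and Apoa4, apolipoproteins of chylomicrons, Dbi, which binds acyl-CoA, and Rbp2, the retinol-binding protein of enterocytes. Digestive and luminal proteins were Sis, sucrase-isomaltase of the brush border, Guca2b, the gut hormone uroguanylin, Spink1, a trypsin inhibitor, and Lgals4, a galectin of enterocytes. The Paneth cell genes Defa20, a defensin, and Lyz1, lysozyme, were among them too. The rest were the ribosomal protein genes Rpl41, Rps29 and Rps12, the ATP synthase genes Atp5b and Atp5g3, the ferritin gene Fth1, Ubb-ps, B2m of MHC class I, Nme7 and Smim24. Among the 20, the SD over the 10 arrays was between 0.04 and 0.19, and Lyz1 had the widest.

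Enterocyte markers were bright throughout. All 19 brush border genes on the array were above the dim level in all 10 PBS arrays. Sis averaged 14.97 ± 0.06, Cdhr5, a protocadherin that links microvilli, averaged 14.78 ± 0.09, and Anpep, aminopeptidase N, averaged 14.54 ± 0.09 (SD, n = 10). Of 22 fat absorption genes on the array, 18 were above the dim level in all 10 arrays, among them Apoa1 at 14.75 ± 0.04 and Acsl5, an acyl-CoA synthetase, at 14.81 ± 0.07 (SD, n = 10). The probes of Fabp1 and Fabp2, the fatty acid-binding proteins of enterocytes, were at or below the dim level in every PBS array, with means of 6.99 and 6.94. A dim probe does not show that its transcript is missing, and these are among the best known enterocyte genes.

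Of 13 goblet cell genes on the array, 12 were above the dim level in all 10 arrays, with Zg16 at 14.67 ± 0.05, the mucin gene Muc2 at 14.35 ± 0.14 and the trefoil factor gene Tff3 at 13.96 ± 0.10 (SD, n = 10). All 8 Paneth cell genes were, with Defa20 at 14.98 ± 0.09 and Itln1, intelectin, at 13.39 ± 0.27 (SD, n = 10). Among 22 enteroendocrine genes, 17 were above it in all arrays, including the hormone genes Sct (secretin) at 12.68 ± 0.12, Sst (somatostatin) at 11.62 ± 0.20 and Gcg (proglucagon) at 10.64 ± 0.16 (SD, n = 10). For tuft cells, 8 of 14 genes were above the dim level in all arrays, with Ltc4s, leukotriene C4 synthase, at 8.88 ± 0.13 (SD, n = 10). The probes of Atoh1 and Pou2f3, transcription factors of the secretory and tuft lineages, were dim in all 10 arrays.

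Crypt and cell division genes were detected in part. Of 15 crypt stem cell genes on the array, 9 were above the dim level in all 10 arrays, and Ephb3 and Znrf3 were dim in every one. Olfm4, a stem cell marker, averaged 10.74 ± 0.51, and Sox9, a crypt transcription factor, 10.34 ± 0.15 (SD, n = 10). Of 28 DNA replication genes on the array, 22 were above the dim level in all 10 arrays, with Mcm4, a subunit of the replicative helicase, at 9.86 ± 0.14 (SD, n = 10). For mitosis, 12 of 19 were and 5 were dim in every array (Bub1, Ccna2, Ccnb2, Cenpe and Kif20a), while those detected included Cenpa, the centromeric histone, at 10.82 ± 0.23 (SD, n = 10). The range of Olfm4 was 9.68 to 11.50.

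Lymphocyte and antigen presentation genes were detected unevenly. Of 16 T cell and intraepithelial lymphocyte genes on the array, 12 were above the dim level in all 10 arrays, whereas Cd4, Cd8a and Gzmb were dim in every one. Ccl5, a chemokine of cytotoxic lymphocytes, averaged 11.60 ± 0.45, Cd8b1, a chain of the CD8 co-receptor, 11.47 ± 0.13, and Itgae, the integrin that holds intraepithelial lymphocytes, 9.75 ± 0.25 (SD, n = 10). Of 11 B and plasma cell genes, 3 were above the dim level in all arrays, and Ms4a1 and Derl3 were dim in all 10. For MHC class II presentation, 9 of 10 genes were above it in all arrays. The MHC class II invariant chain gene Cd74 averaged 12.27 ± 0.34 and H2-Ab1 12.12 ± 0.27 (SD, n = 10). Of 18 macrophage and dendritic cell genes, 13 were above the dim level in all arrays, with C1qc, a complement gene of macrophages, at 9.03 ± 0.51 (SD, n = 10). Neutrophil probes were near the dim level, with 1 of 9 above it in all arrays, namely Retnlg at 7.37 ± 0.13 (SD, n = 10). Mast cell and eosinophil probes were similar, with 1 of 13 above it in all arrays, Kit at 8.66 ± 0.23 (SD, n = 10), a receptor that other cells also carry.

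Markers of the gut region and of neighbouring organs were checked against the jejunum label. Slc10a2, the ileal bile acid transporter, Fgf15, the ileal hormone, Nr0b2, and the colonic genes Car1, Hoxb13 and Retnlb were dim in all 10 PBS arrays. Other members of the ileum and colon list were bright, among them Ms4a10 at 14.52 ± 0.10 and Mep1b, a meprin subunit, at 13.51 ± 0.09 (SD, n = 10), and Mep1b also stands in the brush border list. Cyp27a1 of this list was between 11.49 and 12.2. Of the 12 genes of the list on the array, 5 were above the dim level in all 10 arrays and 6 in none. Of 8 duodenum genes, 5 were above the dim level in all 10 arrays, and Cybrd1 and Hamp were dim in every one. In this list Gip, a hormone gene of upper gut K cells, averaged 9.75 ± 0.19 (SD, n = 10). Of pancreatic acinar genes, 4 of 12 were above the dim level in all arrays, led by Clps (colipase) at 12.35 ± 0.31 (SD, n = 10), whereas the probes of Cpa1, Cel and the acinar transcription factor Ptf1a were dim in all 10.

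**Figure D1:**
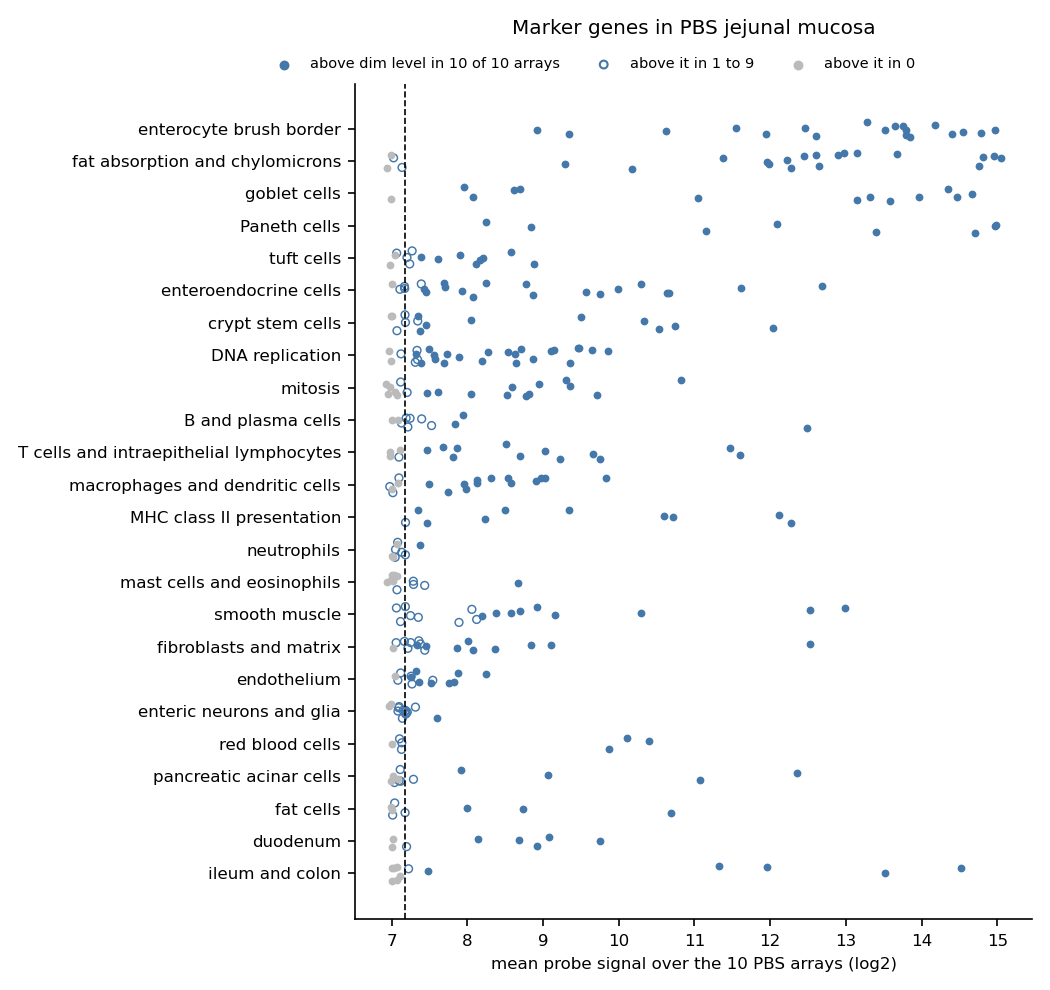
Mean probe signal (log2, x axis) over the 10 PBS arrays of each marker gene in the 24 cell type lists (rows, with small vertical scatter so that points can be told apart), where filled blue points were above the dim level (dashed line at 7.18) in all 10 arrays, open points in some and grey points in none. All 19 brush border genes lie right of the line, while most neutrophil and mast cell genes lie near it.

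Some PBS arrays stood apart from the others of their time. In PBS 1 h replicate 3 and PBS 5 h replicate 3, the 17 smooth muscle genes averaged 1.64 and 1.63 above their 10-array mean on the log2 scale, against values between -0.58 and -0.15 in the other 8 arrays. Acta2, smooth muscle actin, had signals of 8.79, 10.55 and 13.18 at 1 h, 9.54, 9.96, 13.29 and 9.09 at 5 h, and 9.69, 9.72 and 9.23 at 20 h. Of the 10 genes with the largest SD within a time, 9 followed those same 2 arrays: Actg2, Acta2, Tpm2, Myl9 and Myh11 of the contractile apparatus, Des and Synm of intermediate filaments, and Pdlim3 and Dmpk. The smooth muscle list had a median difference of -0.79 at 20 h minus 1 h, with 17 of 17 genes below 0 and none passing. That median was -0.05 without 1 h replicate 3 and -1.29 without 1 h replicate 1. The median over all 13148 genes tested in that comparison was 0.00059.

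The tenth of those genes was Reg3g, a secreted lectin that kills Gram-positive bacteria. Its signals were 11.87, 10.74 and 10.91 at 1 h, 10.82, 9.85, 12.85 and 12.47 at 5 h, and 10.85, 12.16 and 13.38 at 20 h. The 3 times overlapped, and the range within 5 h alone was wider than any difference between the time means. Across all genes the spread was small, with a median SD within a time of 0.105, and 94 genes had an SD over 0.5.

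Blood and fat genes varied by array too. Hbb-bs, a beta-globin gene, had signals of 9.85, 10.28 and 10.68 at 1 h, 11.47, 12.06, 8.91 and 9.79 at 5 h, and 10.32, 10.48 and 10.18 at 20 h. The 2 highest and the 2 lowest of these 10 signals were all from 5 h arrays. Scd1, stearoyl-CoA desaturase, which makes monounsaturated fatty acids, had 9.82, 7.51 and 8.91 at 1 h and at most 7.44 in the other 7 arrays. Adipoq, adiponectin, a hormone of fat cells, was at 7.82, 7.01 and 7.57 in the same 3 arrays, so both genes were high in 1 h replicates 1 and 3. In those 3 arrays the fat cell list of 6 tested genes averaged 0.31, 0.06 and 0.08 above its 10-array mean. In the other 7 arrays the list mean was between -0.20 and 0.18, with the 0.18 in 5 h replicate 4, where Scd1 was not high. The part of fat cells in the Scd1 signal was not tested. Cd79b, part of the B cell receptor, was at 9.01, 8.66 and 7.54 at 1 h, and between 7.36 and 7.88 in all later arrays.

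**Figure D2:**
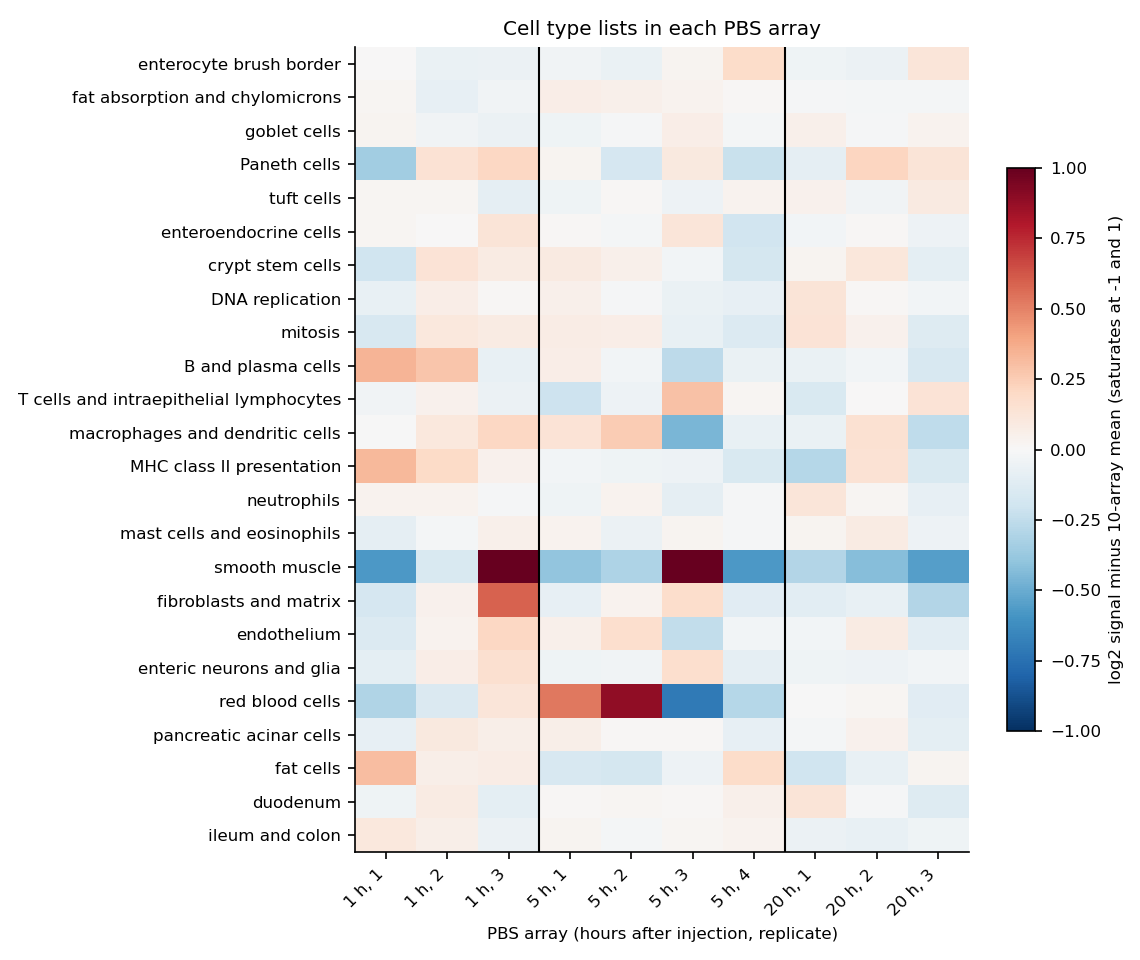
Mean log2 signal of each cell type list (rows) in each of the 10 PBS arrays (columns, by hours after injection and replicate), after subtracting each gene's mean over the 10 arrays. The smooth muscle row is high in 1 h replicate 3 and 5 h replicate 3, and the red blood cell row is high in 5 h replicates 1 and 2.

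**Figure D3:**
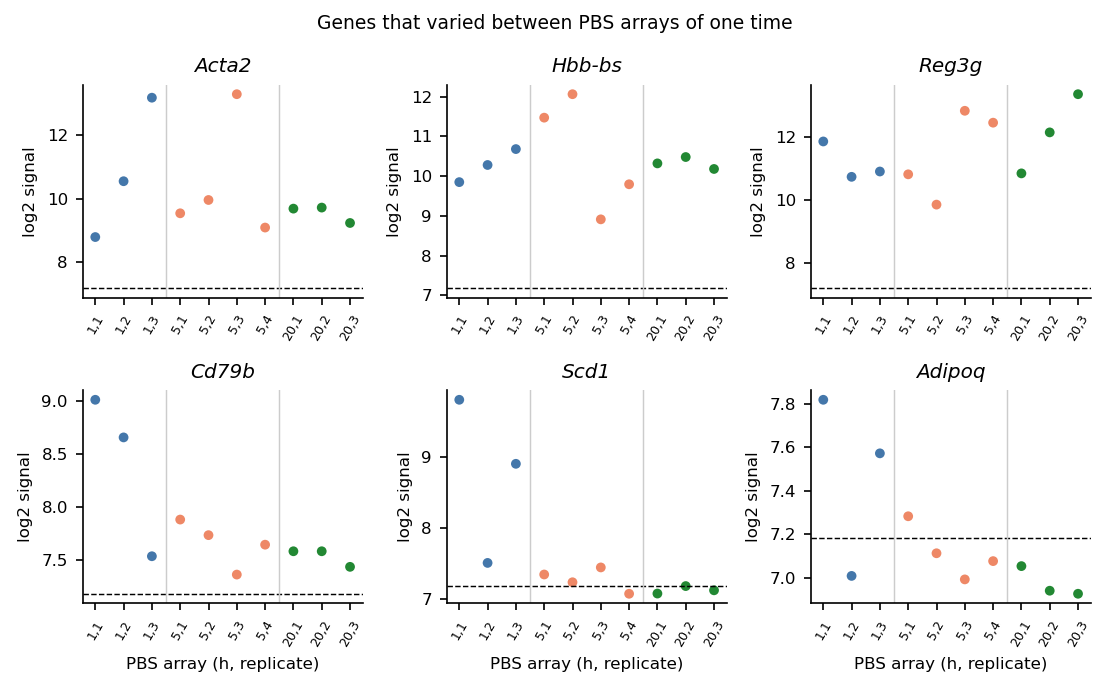
Log2 signal (y axis) of 6 genes in each PBS array (x axis, hours after injection and replicate), with the dim level of 7.18 as a dashed line where it is in range. Acta2 stands at 13.18 and 13.29 in one array each of 1 h and 5 h, while Scd1 and Adipoq are highest in 1 h replicates 1 and 3.

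The question put to the PBS arrays was which genes differ with time after the injection in mice that received no agent. No gene passed an adjusted p of 0.05 (limma with Benjamini-Hochberg adjustment over 13148 genes) in any of the 3 comparisons or in an F-test over the 3 times. At 5 h against 1 h, 0 genes (0%) passed, the smallest adjusted p was 0.115, and 721 genes (5.48%) had an unadjusted p under 0.05. Between 20 h and 1 h, 0 genes (0%) passed by limma, the smallest adjusted p was 0.677, and 561 genes (4.27%) had an unadjusted p under 0.05. For 20 h against 5 h the count by limma was also 0 (0%), with a smallest adjusted p of 0.265 and 569 genes (4.33%) under 0.05 unadjusted. The F-test gave 0 (0%) by limma as well, a smallest adjusted p of 0.279 and 603 genes (4.59%) under 0.05 unadjusted. These shares are close to the threshold itself. The arrays of both times did not overlap for 5.83% of genes at 5 h against 1 h, 8.96% at 20 h against 1 h and 4.4% at 20 h against 5 h. Groups of 3 and 3 arrays separate by chance more often than groups of 3 and 4, so the 8.96% does not show a greater difference.

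The median gene differed by 0.057, 0.059 and 0.054 on the log2 scale in size at 5 h against 1 h, 20 h against 1 h and 20 h against 5 h, beside a median standard error of 0.081, 0.087 and 0.081. For a gene of median standard error, the 95% interval reached 0.167 to 0.179 to either side of the difference. Correlations between arrays of one time ranged from 0.989 to 0.995 (12 pairs, across genes) and between arrays of different times from 0.988 to 0.996 (33 pairs). The labels do not say whether each array is a separate mouse, so the p-values measure only the spread between these samples. The comparisons of 5 h and of 20 h with 1 h share the 1 h arrays.

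Of the 5 genes of smallest p, 4 were lower at 5 h than at 1 h, while at 20 h against 1 h 2 of the 5 were lower. Ddit4, an inhibitor of the growth kinase mTORC1 that is induced by stress and glucocorticoids, had signals of 8.33, 8.55, 8.45 and 8.70 at 5 h, against 8.80, 10.09 and 9.70 at 1 h. All 5 h arrays lay below all 1 h arrays, as they did for 355 of the 13148 genes (2.7%). The difference of -1.02 ± 0.19 (SE), or 2.03-fold lower at 5 h, did not pass (limma, adjusted p = 0.115), and 1 h replicate 1 was close to the later arrays. Without that replicate the difference was -1.39 and passed (adjusted p = 1.25e-05), without 1 h replicate 2 it was -0.74 and did not pass, and a fit to the 10 PBS arrays alone gave an adjusted p of 0.906. At 20 h its signals were 8.56, 8.73 and 8.65, a difference from 1 h of -0.88 ± 0.20 (SE) (limma, adjusted p = 0.677), which became -1.25 without 1 h replicate 1 (adjusted p = 0.000263) and -0.60 without 1 h replicate 2, which did not pass.

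Angptl4, a secreted inhibitor of lipoprotein lipase that fatty acids and fasting induce, had signals of 9.47, 9.64, 9.43 and 11.03 at 5 h, against 11.02, 11.82 and 11.39 at 1 h. One 5 h array, replicate 4, was at the level of the 1 h arrays, so the groups overlapped. The difference was -1.52 ± 0.33 (SE), or 2.86-fold lower at 5 h (limma, adjusted p = 0.393), and without 5 h replicate 4 it was -1.90 (adjusted p = 0.00838). Without 1 h replicate 2 it was -1.31 and did not pass, and with the 10 PBS arrays alone the adjusted p was 0.933. A second Angptl4 probe was near the dim level, at 7.20 on average, and differed by -0.01.

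Foxq1, a forkhead transcription factor, had signals of 9.53, 9.98, 9.96 and 10.72 at 5 h, against 10.66, 11.33 and 11.00 at 1 h, and of 9.93, 10.23 and 10.01 at 20 h. Only 5 h replicate 4 reached the 1 h arrays. Its differences from 1 h were -0.95 ± 0.22 at 5 h and -0.94 ± 0.23 at 20 h (SE; limma, adjusted p = 0.393 and 0.911). The first of these was -1.17 without 5 h replicate 4 (adjusted p = 0.0292) and -0.78 both without 1 h replicate 2 and without 5 h replicate 1, neither of which passed.

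Pdk4, a kinase that shuts off pyruvate oxidation in the fasted state, followed the same arrays. It was at 9.41, 9.49, 9.31 and 10.58 at 5 h and at 9.45, 10.93 and 9.92 at 20 h, while the 1 h arrays had 10.98, 11.01 and 10.84. Both 5 h replicate 4 and 20 h replicate 2 were near the 1 h level. The difference at 5 h against 1 h was -1.25 ± 0.33 (SE; limma, adjusted p = 0.485). Tsc22d3, the glucocorticoid-induced leucine zipper, was at 10.72, 10.97, 10.64 and 11.23 at 5 h, against 11.23, 11.49 and 11.43 at 1 h, a difference of -0.49 ± 0.17 (SE; limma, adjusted p = 0.869).

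Ddit4, Pdk4 and Tsc22d3 belong to a list of glucocorticoid-induced genes, of which 19 of 21 were tested. Between 20 h and 1 h, 15 of the 19 were below 0 and 4 above (50.3% of all genes were above 0), 0 passed, 6 had an unadjusted p under 0.05 and a lower signal against 2.3% of all genes, and the median difference was -0.16. That median was -0.04 without 20 h replicate 1, -0.06 without 1 h replicate 3 and -0.08 without 1 h replicate 1. At 5 h against 1 h, 6 were lower and 2 higher with an unadjusted p under 0.05, against 2.63% and 2.85% of all genes, and the median was -0.05. The list and the choice of these genes were made with earlier results of these data known.

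Other genes near the threshold differed less. At 5 h, Gnb5, a G protein beta subunit, was at 8.52, 8.68, 8.94 and 8.84, against 8.34, 7.96 and 8.30 at 1 h (difference 0.54 ± 0.12 SE; limma, adjusted p = 0.393). The gene 1700025G04Rik differed by -0.40 ± 0.09 (SE; limma, adjusted p = 0.393), at 9.43, 9.32, 9.17 and 9.16 at 5 h, against 9.71, 9.71 and 9.58 at 1 h. Neither pair of groups overlapped. At 20 h against 1 h, Tmem102 differed by 0.31 ± 0.07, C2cd4c by 0.23 ± 0.05 and Fam83e by 0.44 ± 0.11 (SE; limma, adjusted p = 0.677, 0.677 and 0.911). Other probes of Tmem102 and Fam83e, at 8.29 and 7.85 on average, each differed by 0.19 at 20 h against 1 h. For C2cd4c the 20 h arrays stood at 7.53, 7.54 and 7.53, against 7.31, 7.26 and 7.33 at 1 h, all not far above the dim level.

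At 20 h against 5 h, the genes of smallest p were Baiap2l1 and Eps8l3, which shape actin-based membrane protrusions, Coq10b, which binds coenzyme Q, Ppp1r14d, a phosphatase inhibitor of the gut, and Sgms2, a sphingomyelin synthase. Baiap2l1 was at 10.25, 10.12 and 10.09 at 20 h, against 9.87, 9.84, 9.77 and 9.71 at 5 h, a difference of 0.36 ± 0.07 (SE; limma, adjusted p = 0.265). Coq10b was at 9.71, 9.57 and 9.64 at 20 h, against 9.84, 10.08, 10.06 and 10.10 at 5 h, a difference of -0.38 ± 0.08 (SE; limma, adjusted p = 0.265). Neither gene's groups overlapped. The others differed by 0.31 ± 0.07 (Ppp1r14d), -0.30 ± 0.07 (Eps8l3) and 0.31 ± 0.07 (Sgms2) on the log2 scale (SE; limma, adjusted p = 0.424 for each).

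**Figure D4:**
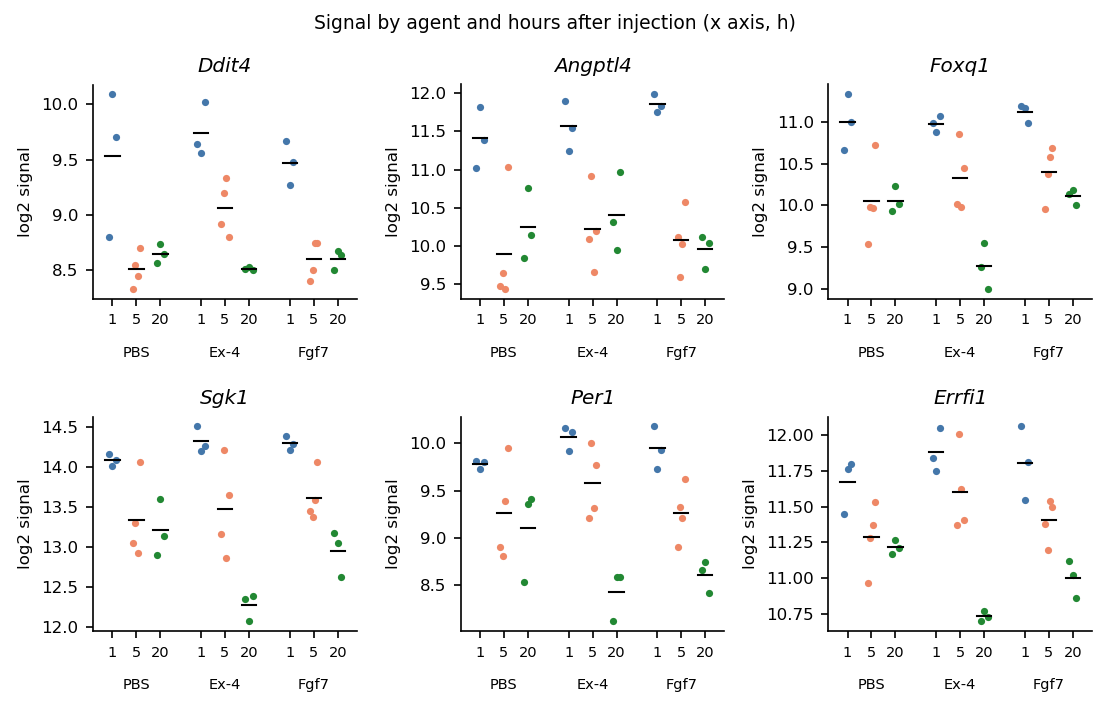
Log2 signal (y axis) of 6 genes on each array (points) with group means (bars), by agent and hours after injection, where PBS arrays are the left 3 columns of each panel. In the PBS arrays Ddit4 is at or below 8.73 in all 5 h and 20 h arrays, and 5 h replicate 4 stands at 11.03 for Angptl4.

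The circadian clock is a loop in which the activators Arntl (BMAL1), Clock and Npas2 switch on the repressors of the Per and Cry families and Ciart. The same activators drive output factors such as Dbp and Tef, and Nr1d1 and Nr1d2 close a second loop on Arntl. Activators bind the E-box CACGTG, Dbp and Tef bind the D-box TTATGTAA or TTACGTAA, and REV-ERB proteins bind TAGGTCA or TGGGTCA. Start-site regions of 300 bases (250 before and 50 after the start, RefSeq, GRCm38.p6) were searched on both strands for the 8 clock genes of smallest F-test p, a choice made after their values were seen. The table held entries for 6 of them, and Per2 and Csnk1d had none. Only the regions that held a match are shown, with matches in capitals.
Ciart, chr3:95882179-95882478, minus strand: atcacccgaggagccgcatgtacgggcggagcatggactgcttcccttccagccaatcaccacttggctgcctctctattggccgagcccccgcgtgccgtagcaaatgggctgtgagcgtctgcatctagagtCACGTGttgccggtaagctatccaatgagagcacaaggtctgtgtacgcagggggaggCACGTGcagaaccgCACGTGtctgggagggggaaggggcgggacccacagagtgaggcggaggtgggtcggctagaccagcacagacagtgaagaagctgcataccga
Per1, chr11:69098699-69098998, plus strand: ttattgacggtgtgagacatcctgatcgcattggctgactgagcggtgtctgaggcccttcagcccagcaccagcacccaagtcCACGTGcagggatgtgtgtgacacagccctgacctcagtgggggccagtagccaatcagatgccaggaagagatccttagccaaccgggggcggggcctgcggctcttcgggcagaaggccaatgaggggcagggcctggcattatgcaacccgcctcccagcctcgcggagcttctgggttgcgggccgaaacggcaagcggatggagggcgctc
Arntl, chr7:113207261-113207560, plus strand: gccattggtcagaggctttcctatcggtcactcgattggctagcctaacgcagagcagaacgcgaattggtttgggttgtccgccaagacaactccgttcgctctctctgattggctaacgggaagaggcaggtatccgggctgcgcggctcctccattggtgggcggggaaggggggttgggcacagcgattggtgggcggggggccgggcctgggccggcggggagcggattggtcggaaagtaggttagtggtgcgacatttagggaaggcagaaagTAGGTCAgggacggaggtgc
Ciart held 3 E-boxes, which began at -116, -58 and -44 counted from the start, and Per1 held 1 that began at -166. Arntl held 1 TAGGTCA, from base 31 to base 37, counted from 1 at the start. The second Per1 region, the first Arntl region and those of Dbp, Usp2 and Tsc22d3 held none of these letters. Of all 32851 start-site regions in the table, 7.15% held an E-box, 1.06% a D-box and 6.45% a TAGGTCA or TGGGTCA.

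No clock gene passed in the PBS arrays. The repressor Per2 was at 9.95, 9.66 and 9.60 at 1 h, 10.16, 9.92, 10.35 and 10.35 at 5 h, and 9.20, 9.57 and 9.70 at 20 h. All 5 h arrays were above all 20 h arrays. The difference at 20 h against 5 h was -0.71 ± 0.17 (SE), or 1.63-fold lower at 20 h (limma, adjusted p = 0.44), and a second probe of Per2 differed by -0.63.

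Ciart was at 7.77, 7.88 and 7.56 at 1 h, 7.75, 7.96, 8.23 and 8.43 at 5 h, and 7.51, 7.37 and 7.59 at 20 h. Its difference at 20 h against 5 h was -0.60 ± 0.15 (SE; limma, adjusted p = 0.44). Dbp, an output activator, was at 12.30, 12.49 and 12.23 at 1 h, 12.43, 12.66, 12.57 and 12.49 at 5 h, and 11.46, 11.84 and 12.10 at 20 h. For both genes the 20 h arrays lay below every 5 h array. The Dbp difference at 20 h against 5 h was -0.74 ± 0.23 (SE; limma, adjusted p = 0.793).

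Arntl had the opposite order. It was at 8.21, 7.78 and 8.01 at 1 h, 7.99, 7.95, 7.95 and 8.08 at 5 h, and 8.53, 8.26 and 8.33 at 20 h, where every array was above every earlier one. The difference at 20 h was 0.38 ± 0.12 (SE) against 5 h (limma, adjusted p = 0.793). Usp2, a clock-driven deubiquitinase, differed by -0.39 ± 0.13 and Tef by -0.34 ± 0.17 at 20 h against 5 h (SE; limma, adjusted p = 0.927 and 1).

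Per1, the period gene that glucocorticoids also induce, did not follow Per2. It was at 9.81, 9.73 and 9.80 at 1 h, 8.91, 8.81, 9.39 and 9.95 at 5 h, and 8.53, 9.36 and 9.41 at 20 h. The 3 arrays of 1 h were within 0.1 of each other, and 5 h replicate 4 was again at their level. Its difference at 20 h against 1 h was -0.68 ± 0.25 (SE; limma, adjusted p = 1).

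Csnk1d, of the repressor list, differed by 0.19 at 5 h and 0.23 at 20 h against 1 h. Its other probes differed by 0.00 to 0.16 and by 0.02 to 0.15. Nampt, of the output list, differed by 0.33 at 5 h against 1 h and by -0.37 at 20 h against 5 h. Several other clock genes showed little difference. Clock itself differed by -0.03 at 5 h and 0.03 at 20 h against 1 h, and Nr1d1, REV-ERB alpha, by 0.10 and 0.03, with signals between 8.60 and 9.27 in the 10 arrays. Nr1d2, Cry2, Csnk1e, Bhlhe40 and Npas2 had an unadjusted p over 0.1 in each comparison by limma. Per3 differed by 0.07 at 5 h and -0.07 at 20 h against 1 h. Klf9 was at 10.24, 10.59 and 10.83 at 1 h, 9.83, 10.23, 10.58 and 10.66 at 5 h, and 10.45, 10.07 and 10.46 at 20 h. Rora and Rorb were near the dim level, at 7.07 to 7.45 and 6.98 to 7.27. The probes of Cry1, Bhlhe41, Hlf, Klf10 and Wee1 were dim in all 10 arrays. In the list of repressors, 9 of the 10 tested genes were below 0 at 20 h against 5 h (median -0.15), as were 5 of the 6 tested output factors (median -0.36), while 50.4% of all genes were above 0. The output factor median was -0.18 without 20 h replicate 1 and -0.09 with no filter on dim probes.

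**Figure D5:**
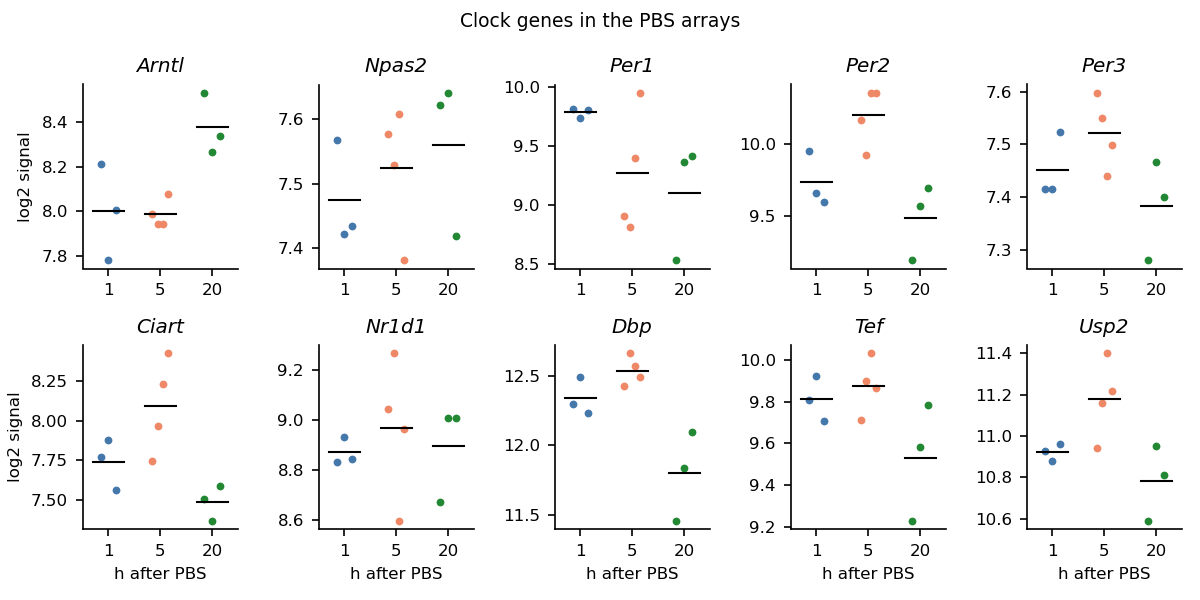
Log2 signal (y axis, scaled per panel) of 10 clock genes in the PBS arrays at 1, 5 and 20 h after injection (x axis), with points for arrays and bars for group means. Per2, Ciart and Dbp have all 5 h arrays above all 20 h arrays, and Arntl has all 20 h arrays above the others.

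No gene of the epithelial lists passed, and the medians of these lists lay between -0.06 and 0.12 in the 3 comparisons. Single genes ran from -0.58 in the enteroendocrine list (20 h against 1 h) to 0.37 in the Paneth list (20 h against 5 h). At 20 h against 1 h, 3 of 11 tuft and 2 of 12 goblet cell genes were higher with an unadjusted p under 0.05 (limma). Among all genes 1.97% were, and in these 2 lists 0 were lower at that level. Of 19 brush border genes, 13 were above 0 at 5 h and 10 at 20 h against 1 h, with medians of 0.07 and 0.00 and differences between -0.13 and 0.32. Of 19 tested fat absorption genes, 16 were above 0 at 5 h against 1 h (median 0.08) and 15 were below 0 at 20 h against 5 h (median -0.06). Of 26 DNA replication genes, 17 were below 0 at 5 h (median -0.03) and 17 above 0 at 20 h (median 0.03) against 1 h. The 9 tested B and plasma cell genes had medians of -0.24 at 5 h and -0.28 at 20 h against 1 h, and of -0.10 and -0.12 without 1 h replicate 1. The first was -0.39 without 1 h replicate 3, and the second was -0.15 without 20 h replicate 3.

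The remaining pathway lists gave no passing gene in any comparison. In cholesterol synthesis, 0 of 18 tested genes had an unadjusted p under 0.05 in either direction in any comparison by limma, and the medians were 0.02, 0.00 and -0.01 (rounded) for 5 h against 1 h, 20 h against 1 h and 20 h against 5 h. Fatty acid synthesis had Scd1, described above, as its gene of smallest F-test p. All 1 h arrays of Scd1 were above all later ones, replicate 2 only narrowly. The lowest differences in this list were -1.47 at 5 h and -1.62 at 20 h against 1 h. Of its 15 tested genes, 2 at 5 h and 3 at 20 h were lower with an unadjusted p under 0.05 (limma). The shares of all genes were 2.63% and 2.3%. MHC class II presentation is one of the cell type lists. In it, 10 of 10 genes were below 0 both at 5 h (median -0.26) and at 20 h (median -0.27) against 1 h. Of all genes, 49.1% and 50.3% were above 0. In this list 1 gene at 5 h and 2 genes at 20 h had an unadjusted p under 0.05 (limma). These 2 comparisons share the 1 h arrays, whose replicates 1 and 2 had the highest list means.

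Among enzymes that handle foreign compounds, values above 0 prevailed. Of 29 conjugation enzymes and drug pumps tested, 26 were above 0 at 20 h against 1 h, where 50.3% of all genes were. An unadjusted p under 0.05 with a higher signal was found for 7 by limma, against 1.97% of all genes, and the median was 0.10. The centred list means were -0.003, 0.142 and 0.118 at 20 h, against -0.025, -0.118 and -0.116 at 1 h. At 5 h they ran from -0.197 to 0.187. This median was not followed in the alternative fits. Gsta3, a glutathione transferase, was at 10.74, 11.02 and 10.89 at 20 h, against 10.58, 10.20 and 10.27 at 1 h, a difference of 0.53 ± 0.21 (SE; limma, adjusted p = 1). All its 20 h arrays were above its 1 h arrays.

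Nr1i3, the nuclear receptor CAR, and Alas1, the first enzyme of heme synthesis, were highest at 5 h. Nr1i3 was at 11.10, 10.81, 10.93 and 10.82 at 5 h, against 10.59, 10.60 and 10.59 at 1 h (difference 0.33 ± 0.09 SE; limma, adjusted p = 0.518), and at 10.65, 10.55 and 10.55 at 20 h. Alas1 was at 12.92, 12.95, 13.10 and 12.82 at 5 h, against 12.64, 12.44 and 12.74 at 1 h (difference 0.34 ± 0.09 SE; limma, adjusted p = 0.485). In both genes all 5 h arrays were above all 1 h arrays.

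In transport, Slc6a19, the main neutral amino acid transporter of the brush border, was at 12.37, 12.53 and 12.68 at 20 h, against 12.86, 12.74, 12.89 and 12.95 at 5 h (difference -0.33 ± 0.11 SE; limma, adjusted p = 0.933). Txnip, a glucose-induced inhibitor of glucose uptake, was at 11.31, 11.42 and 11.18 at 20 h, against 11.47, 11.67 and 12.11 at 1 h (difference -0.45 ± 0.14 SE; limma, adjusted p = 1). Neither pair of groups overlapped. Chac1, a glutathione-degrading enzyme of the amino acid response, had signals of 8.16, 7.76 and 8.64 at 20 h, against 7.43, 7.12 and 7.45 at 1 h (difference 0.85 ± 0.32 SE; limma, adjusted p = 1).

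The Ex-4 and Fgf7 arrays share no array with the PBS arrays, and the same comparisons between times were made within each agent. With Ex-4, 109 genes (0.829%) passed at 5 h against 1 h, 497 (3.78%) at 20 h against 1 h and 905 (6.88%) at 20 h against 5 h (limma, adjusted p under 0.05). With Fgf7 the counts were 16 (0.122%), 48 (0.365%) and 79 (0.601%). Of the 48 genes that passed with Fgf7 at 20 h against 1 h, 43 (89.6%) had the same direction in the PBS arrays, compared with 54.5% over all genes, and of the 497 with Ex-4, 365 (73.4%) did, compared with 57.2% over all genes. At 20 h against 5 h the same direction was found for 65 of 79 (82.3%) with Fgf7 and 602 of 905 (66.5%) with Ex-4, compared with 58.9% and 55.6% over all genes. At 5 h against 1 h it was found for 11 of 16 (68.8%) and 62 of 109 (56.9%), compared with 50.5% and 51.4% over all genes.

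Genes that passed with both agents, in one direction, were looked at next, a choice made after the values were seen. There were 19 at 20 h against 1 h, of which 18 were lower at 20 h, and all 19 had the same sign in PBS mice. Over all 7524 genes whose 2 agents gave one sign, 60.3% had that sign in PBS mice too. Among the 19, 11 had an unadjusted p under 0.05 in the PBS arrays by limma, against 4.27% of all genes, and none passed. The 4.27% is not a like share, because the 19 were chosen by tests that use the same spread per gene. The median PBS difference in the agents' direction was 0.30, beside the agents' medians of 0.88 and 0.81. These sizes cannot be compared, because the 19 were chosen for passing with the agents, which favours large agent differences.

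The genes that passed with both agents included Sgk1, a glucocorticoid-induced kinase that raises sodium uptake. In PBS mice it was at 12.90, 13.60 and 13.14 at 20 h, against 14.16, 14.02 and 14.09 at 1 h. Its difference was -0.88 ± 0.27 (SE; limma, adjusted p = 1), while Ex-4 mice gave -2.06 and Fgf7 mice -1.35 (adjusted p = 1.69e-05 and 0.0157). At 5 h in PBS mice Sgk1 was at 13.05, 13.30, 12.93 and 14.07, with replicate 4 again level with the 1 h arrays.

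Per1 (-1.63 with Ex-4, -1.34 with Fgf7), Ddit4 (-1.23 and -0.87), Noct (-1.40 and -1.30), a rhythmic phosphatase, and Pmaip1 (-1.45 and -1.08), a BH3-only apoptosis gene, were among the 19 too. In PBS mice Noct was at 10.25, 10.77 and 10.46 at 20 h, against 11.00, 10.92 and 11.08 at 1 h, with no overlap. Errfi1, a feedback inhibitor of EGF receptors, was at 11.17, 11.27 and 11.21 at 20 h, against 11.45, 11.76 and 11.80 at 1 h in PBS mice, again with no overlap. At 5 h against 1 h 1 gene passed with both agents, Angptl4, at -1.35 with Ex-4 and -1.78 with Fgf7 (limma, adjusted p = 0.0453 and 0.0152), beside the -1.52 in PBS mice.

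For 20 h against 5 h, 41 genes passed with both agents and 38 of them had the same sign in PBS mice. Over all 8202 genes whose agents gave one sign, 61.6% had that sign in PBS mice too. Of the 41 genes, 27 had an unadjusted p under 0.05 in the PBS arrays (limma), against 4.33% of all genes. The 4.33% is again not a like share, because the 41 were chosen by tests that use the same spread per gene. Slc34a2, a phosphate transporter of the small intestine, was at 9.37, 8.76 and 10.01 at 20 h, against 8.69, 8.12, 8.06 and 7.95 at 5 h in PBS mice. Its groups did not overlap, and its difference was 1.17 in PBS mice, 2.14 with Ex-4 and 1.41 with Fgf7. Dgat2, which makes triglyceride, was at 12.15, 12.47 and 12.37 at 20 h, against 12.66, 12.75, 12.98 and 13.21 at 5 h in PBS mice, again without overlap.

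The clock genes Per2, Ciart and Usp2 were among these 41. For Per2 the difference at 20 h against 5 h was -0.71 in PBS mice, -1.84 in Ex-4 mice and -0.87 in Fgf7 mice. The PBS difference was 1.13 above the Ex-4 difference (limma, interaction, adjusted p = 0.0185). Dbp differed by -0.74 in PBS mice, -2.82 in Ex-4 mice and -0.70 in Fgf7 mice, and the PBS difference was 2.08 above that of Ex-4 (limma, interaction, adjusted p = 0.000651). Arntl differed by 0.38 in PBS mice and 1.27 in Ex-4 mice (limma, interaction, adjusted p = 0.00555).

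Over all 13148 genes, the time difference in PBS mice departed from that in Ex-4 mice for 17 genes (0.129%) at 5 h against 1 h, 67 (0.51%) at 20 h against 1 h and 125 (0.951%) at 20 h against 5 h (limma, interaction, adjusted p under 0.05). Set against Fgf7 mice, 0 genes (0%) did so at 5 h against 1 h by limma and 953 (7.25%) had an unadjusted p under 0.05. For 20 h against 5 h the count by limma was again 0 (0%), with 484 (3.68%) under 0.05 unadjusted. At 20 h against 1 h 3 genes (0.0228%) differed from Fgf7 mice, named here after their values were seen. Egr1, an immediate-early transcription factor, differed by 0.28 in PBS mice and by -1.66 in Fgf7 mice (adjusted p = 0.0188). Anxa3, an annexin, differed by -0.09 and 1.04 (adjusted p = 0.0175), and Mboat1, a membrane acyltransferase, by 0.07 and 0.95 (adjusted p = 0.00797).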

How the data were processed

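Values were the log2 signals per probe that the authors deposited for 30 Illumina beadchips hybridised with biotin-labelled cRNA (TotalPrep-96 kit, per the labels' protocols); background correction and normalisation are not given in the sources used here. The columns had nearly identical distributions (largest SD at one rank 0.00218), and no depth is known beyond the number of arrays, which limits the precision. A further deposited table of signals was not used, because its 60 columns matched no sample label. Of 45281 probes, 34885 had 1 gene symbol, 18 several and 10378 none; 34807 matched a RefSeq gene. The probe with the highest mean over the 30 arrays stood for each gene. Probes above the dim level (normal quantile 0.99) in at least 3 arrays were kept (26470), leaving 13148 genes. limma 3.58.1 (R 4.3.3) fitted a mean per group of agent and time over all 30 arrays (21 residual degrees of freedom), with Benjamini-Hochberg adjustment over all genes tested and a threshold of 0.05. The model was tested on simulated data.

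Samples were grouped by their titles. Named genes were the 5 of smallest p per comparison (as fewer than 3 passed), the 20 highest signals, up to 4 detected members per cell type list, up to 2 members of smallest p per pathway list, all clock genes and the 10 genes of largest SD within times; other genes were named after their values were seen, among them Hbb-bs, Scd1, Adipoq, Cd79b and the genes shared by both agents. The 47 gene lists and the samples were chosen with earlier results of these data known. Alternatives were the replicate block, only the PBS arrays, array weights, other filters, probes, scaling and background, the smooth muscle signal as a term in the fit, and fits that each left out an array or the pair of high smooth muscle arrays. Sequences came from RefSeq (GRCm38.p6). The main fit did not pair samples by replicate number. Deviations of same-numbered PBS arrays correlated between -0.202 and 0.479 (9 pairs, median 0.104). Those of different-numbered arrays of different times correlated between -0.481 and 0.598 (24 pairs, median -0.0268). These wide ranges do not decide whether the numbers mark a pairing.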

Additional observations from a re-analysis of the deposited data

Results flagged for a closer look

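Among 68 groups of 4 PBS 5 h arrays checked, 12 held an array far from the other 3 by Dixon's 95% criterion. Chance gives this in about 1 of 20 groups, but the count cannot be read against that share, because 7 of the 12 are smooth-muscle-rich genes named for their large SD within times. These 7 stood apart in replicate 3: Tpm2 at 11.62, Des at 11.05, Myl9 at 10.55, Myh11 at 10.71, Pdlim3 at 10.64, Synm at 10.25 and Dmpk at 10.53, where the other 3 arrays lay between 7.20 and 7.99. The mean of the smooth muscle list was 1.629 there, against at most -0.308 in the others. Angptl4 stood at 11.03 in replicate 4, Coq10b at 9.839 in replicate 1 and Csnk1e at 8.28 in replicate 2. The ileum and colon list mean was -0.022 in replicate 2.

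Of 264 differences between the time differences of PBS mice and those of the other agents, 13 passed by limma (interaction, adjusted p under 0.05), all against Ex-4. Over all genes, 0.129% to 0.951% passed against Ex-4 and 0% to 0.0228% against Fgf7. The count cannot be read against those shares. The genes were those of smallest p in the PBS comparisons, the clock genes and those of largest SD within times. The PBS side of these values was thus used to choose some of the genes. The value is the PBS difference minus the Ex-4 difference. For 1700025G04Rik it was -0.692 at 5 h against 1 h and 0.886 at 20 h against 5 h. Coq10b gave 0.611 and Eps8l3 0.533 at 20 h against 1 h, and Eps8l3 gave 0.387 at 20 h against 5 h. Among clock genes at 20 h against 5 h, Arntl gave -0.89, Npas2 -0.483, Per2 1.13, Dbp 2.084 and Tef 0.982. At 20 h against 1 h, Per2 gave 1.26, Dbp 2.067 and Usp2 0.861. For Arntl and Dbp the Ex-4 differences themselves were 1.275 and -2.821 at 20 h against 5 h, beside 0.385 and -0.737 in PBS mice.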

How the results depend on the processing

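The count of 0 passing genes held at 20 h against 5 h in all 22 alternatives, and in most for the other comparisons. With the replicate block, 2 genes passed at 5 h against 1 h (Ddit4 and Foxq1) and 1 in the F-test (Foxq1). With array weights 1 passed at 5 h against 1 h (Ddit4). Leaving out 1 PBS array at a time gave 0 to 3 genes at 5 h against 1 h, 0 to 1 at 20 h against 1 h, 0 to 0 at 20 h against 5 h and 0 to 1 in the F-test. Without 1 h replicate 1, Ddit4 passed at 5 h, at 20 h and in the F-test; without 1 h replicate 3, Cxcr5 passed at 5 h (log2 difference -0.575); and without 5 h replicate 4, Angptl4, Ddit4 and Foxq1 passed at 5 h and Angptl4 in the F-test. As no gene passed in the main fit, there was no called value whose sign could reverse. The genes of smallest p kept their sign in every alternative. Medians of some lists did not keep theirs when 1 array was left out. At 5 h against 1 h, smooth muscle ran from -0.789 to 0.484 and fibroblasts and matrix from -0.243 to 0.059. With background subtracted, the B and plasma cell median was -0.747 at 5 h and -0.641 at 20 h against 1 h. What equal replicate numbers share is not known. With both smooth-muscle-rich arrays left out, no gene passed by limma in any comparison (642 genes at 5 h, 501 at 20 h against 1 h and 469 at 20 h against 5 h had an unadjusted p under 0.05). The few arrays per time and the signal floor limit what could be seen: a dim probe gives only a bound, and differences near it are compressed.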
